A study of Mus musculus with 29 samples.

Results

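Brain granulocytes were the 867 cells that the authors' deposited annotation places in the class Gran in 8 brain libraries, out of 106977 cells in the whole series. They comprised 517 cells from 4 sham libraries and 350 cells from 4 stroke libraries, all taken at day 2. The study profiled single cells of brain and blood by Drop-seq, a droplet method that tags the 3' ends of transcripts, after transient occlusion of the middle cerebral artery or sham surgery. Both groups were male C57BL/6J mice of 8 to 10 weeks. A library pooled several hemispheres, so the replicates are pools, and p-values measure the spread between pools. Hemispheres were digested with papain in the presence of Brilliant Blue G, actinomycin D and AP-5, the second of which blocks transcription, and CD45high leukocytes, microglia and endothelial cells were collected by sorting. A transient occlusion lets blood return to the injured tissue, so the model holds reperfusion as well as ischaemia.

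Neutrophils, the main granulocytes of mouse blood, leave the bone marrow with preformed granules whose proteins were made earlier, during maturation. Transcripts of secondary and tertiary granule proteins fall as the cells mature, while chemokine, cytokine and immediate early genes can be switched on after the cells leave the blood and meet injured tissue. In the ischaemic brain they are among the first blood cells to arrive.

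The markers fixed for the class were high in it. S100a8, a subunit of the calcium-binding alarmin calprotectin, stood at 126431 to 192510.0 CPM (counts scaled to the library's granulocyte total times its TMM factor; levels in other cells use the plain total) in the sham libraries and at 58681 to 116964 CPM in the stroke libraries. In the pooled other cells of the same libraries S100a8 stood at 68.7 CPM after sham and 58.0 CPM after stroke. S100a9, the partner subunit, stood at 78151 to 137109 CPM after sham and 42155 to 75991 CPM after stroke, against 29.7 and 0.917 CPM in the other cells. Neither gene passed the test between the groups (S100a8, log2 fold change -0.96 ± 0.30 SE, adjusted p = 0.0559; S100a9, -0.83 ± 0.29, adjusted p = 0.0905; edgeR quasi-likelihood test), although every stroke library lay below every sham library for both. The summed level of 10 neutrophil markers ran from 236862 to 357895 CPM after sham and from 118902 to 215674 CPM after stroke.

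Markers of other cell types were measured in the granulocyte sums and in the other cells of the same libraries, and their part in the results was not tested. The summed level of 10 microglia markers was 233 to 644 CPM after sham and 132 to 663 CPM after stroke, against 18240 to 23608 and 902 to 9752 CPM in the other cells of those libraries. For 14 monocyte and macrophage markers the ranges were 748 to 2876 and 747 to 2296 CPM in granulocytes, and 17506.5 to 25985 and 15647 to 21825 CPM in the other cells. The eosinophil markers found in the tables (5 of 8) summed to at most 60.3 CPM after sham and 140.0 CPM after stroke, and those of basophils and mast cells (6 of 10) to at most 30.5 and 18.1 CPM. In the stroke libraries the eosinophil sum had a median of 81.8 CPM in granulocytes, against 5.06 to 19.2 CPM in the other cells, with Ccr3, Il5ra and Ear1 at 0. Oligodendrocyte and astrocyte markers summed to 93.4 to 217 CPM in stroke granulocytes and to 41.5 to 213 CPM in the other cells. Granulocyte sums held 51460 to 117285 counts per library after sham and 19110 to 92316 after stroke, with median counts per cell of 325 to 552 and 273 to 736. No barcode occurred in granulocytes of more than 1 library. The deposited values are fractional, 74.1 to 83.9% of the non-zero granulocyte values being under 1, and the step that made them so is not given in the sources used here. Granulocyte totals fell short of the totals of values rounded up by 2.43 to 7.15% after sham and 4.41 to 16.1% after stroke. Stroke replicate 4 fell short the most.

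The granulocyte share of all sorted brain cells did not pass the test between the groups. It was 3.47% ± 0.937 (SD, n = 4) after sham and 2.30% ± 0.745 (SD, n = 4) after stroke (log2 fold change -0.59 ± 0.55 SE, edgeR adjusted p = 0.434 over 12 cell types; exact two-sided permutation p = 0.0857). Among leukocytes other than microglia the share was lower after stroke. It was 17.5, 22.6, 22.8 and 31.9% in the sham libraries and 2.07, 3.46, 2.58 and 7.45% in the stroke libraries, so the groups did not overlap (log2 fold change -2.61 ± 0.51 SE, edgeR adjusted p = 0.000332 over 7 types; exact two-sided permutation p = 0.0286, the smallest that 4 against 4 can give). In cells of at least 500 counts the log2 fold change of this share was -3.53 (edgeR adjusted p = 0.0128). That setting left 42, 98, 39 and 34 granulocytes in the sham libraries and 8, 2, 50 and 93 in the stroke libraries. Every share given below for such cells rests on these. In the same libraries the class MdC held 43 to 99 cells after sham and 1468 to 2180 after stroke. The sort sets all of these shares, and a fall in the share of granulocytes cannot be told apart from a rise of other sorted leukocytes.

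The mix of granulocyte subtypes differed between sham and stroke. The authors divided Gran into Gran1 to Gran6. Gran1, with Ccl6, Retnlg and Wfdc17 among its leading genes, made up 77.1, 83.4, 90.8 and 75.6% of sham granulocytes and 24.5, 20.0, 44.6 and 42.6% of stroke granulocytes (log2 fold change -1.29 ± 0.34 SE, edgeR adjusted p = 0.00187 over 6 subtypes; -0.42 in cells of at least 500 counts, adjusted p = 0.0408). Gran2, led by Bcl2a1b, Tnf, Cxcl3 and Ccrl2, made up 8.43, 3.55, 0.704 and 0% after sham and 58.5, 46.7, 45.9 and 46.6% after stroke (4.08 ± 0.56, adjusted p = 4.37e-06; 4.87 without sham replicate 1). Sham libraries held 0 to 7 Gran2 cells and stroke libraries 31 to 69.

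Gran3, led by Csf1, Cd63, Clec4n and Hilpda, was found in 0 of 517 sham granulocytes, which allows a share of up to 0.580% for counting error alone, and in 29 of 350 stroke granulocytes. Its share of stroke granulocytes was 5.66, 24.0, 5.41 and 2.70% in the 4 libraries (adjusted p = 0.000194), and 18 of the 29 cells came from stroke replicate 2. Gran4, led by Ltf, Camp, Serpinb1a and Ngp, made up 8.43, 10.1, 7.04 and 21.1% after sham and 1.89, 1.33, 1.35 and 0% after stroke (-3.55 ± 0.72, adjusted p = 0.000194), that is 60 cells against 3. The log2 fold change of the Gran4 share was -2.87 without stroke replicate 4 and -5.99 in cells of at least 500 counts. Gran5 did not pass the test, with 2.11% ± 1.52 after sham and 3.09% ± 2.39 after stroke (SD, n = 4 each; 0.53 ± 0.94, adjusted p = 0.579). Gran6 was higher after stroke, at 3.97% ± 1.11 against 1.31% ± 0.813 (SD, n = 4 each; 1.72 ± 0.66, adjusted p = 0.0215), on 15 and 6 cells; without sham replicate 2 or stroke replicate 4 it did not pass (adjusted p = 0.0811 and 0.0946), nor with a replicate block (0.0639) or in cells of at least 500 counts (0.0862). For every subtype except Gran5 the libraries of the groups did not overlap (exact two-sided permutation p = 0.0286, adjusted p = 0.0343). The subtypes were clustered on the expression of these same cells, so their shares and the gene results below are not independent of each other.

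**Figure D1:**
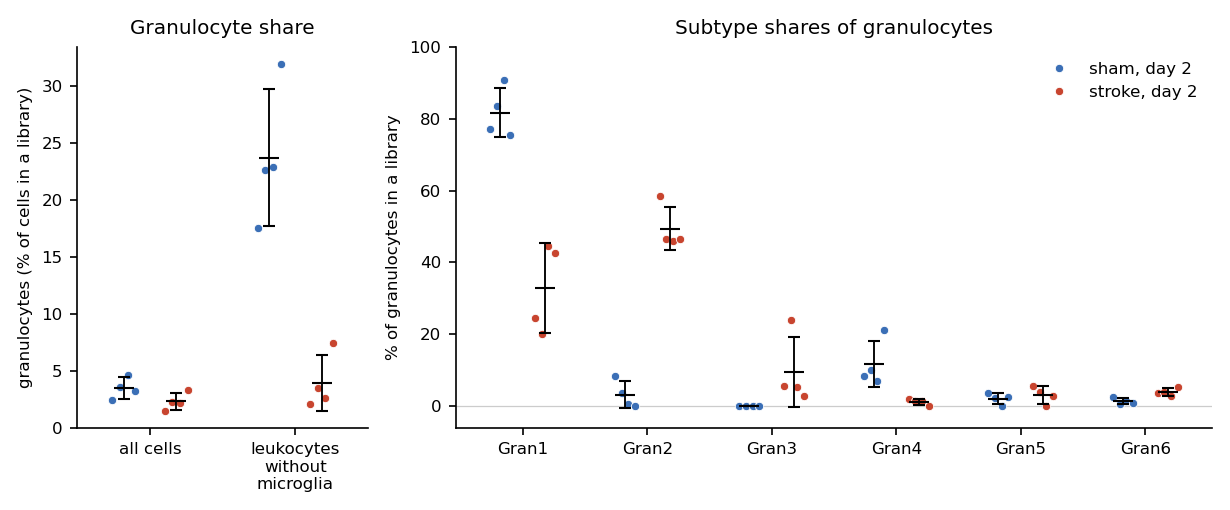
Left, granulocytes as a percentage of all cells and of leukocytes other than microglia in each library; right, each subtype as a percentage of granulocytes. Points are libraries (4 sham, 4 stroke, day 2), and bars are the mean and SD; Gran2 reached 45.9 to 58.5% in stroke libraries and at most 8.43% in sham libraries.

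Summed over granulocytes, 994 genes had enough counts to be tested between stroke and sham, of 11750 with any granulocyte count. A gene was called at an adjusted p under 0.05, and 83 were (8.35% of those tested): 55 higher after stroke, 5.53% of those tested, and 28 lower, 2.82%. Without TMM scaling, which moved the median log2 fold change of all tested genes from -0.01 to 0.17, the split was 68 higher and 19 lower (78.2% higher, against 66.3%). For 79 tested genes (7.95%) every stroke library was above every sham library, and for 76 (7.65%) every one was below. Of the 83 called genes, 19 had a higher level in the other cells of the libraries than in granulocytes (17 higher and 2 lower after stroke). A gene can pass the count filter through the 1 group where it is high, so counts and medians over the tested members of a list describe those members only and not the whole list. The counts also limited what could be called. On simulated data of this comparison with 959 genes tested, 19 of 82 changed by 2-fold were recovered and 78 of 90 changed by 4-fold. Both totals hold only changed genes that still passed the count filter. Without sham replicate 2 or sham replicate 4, 42 genes were called, and without stroke replicate 2, 55.

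**Figure D2:**
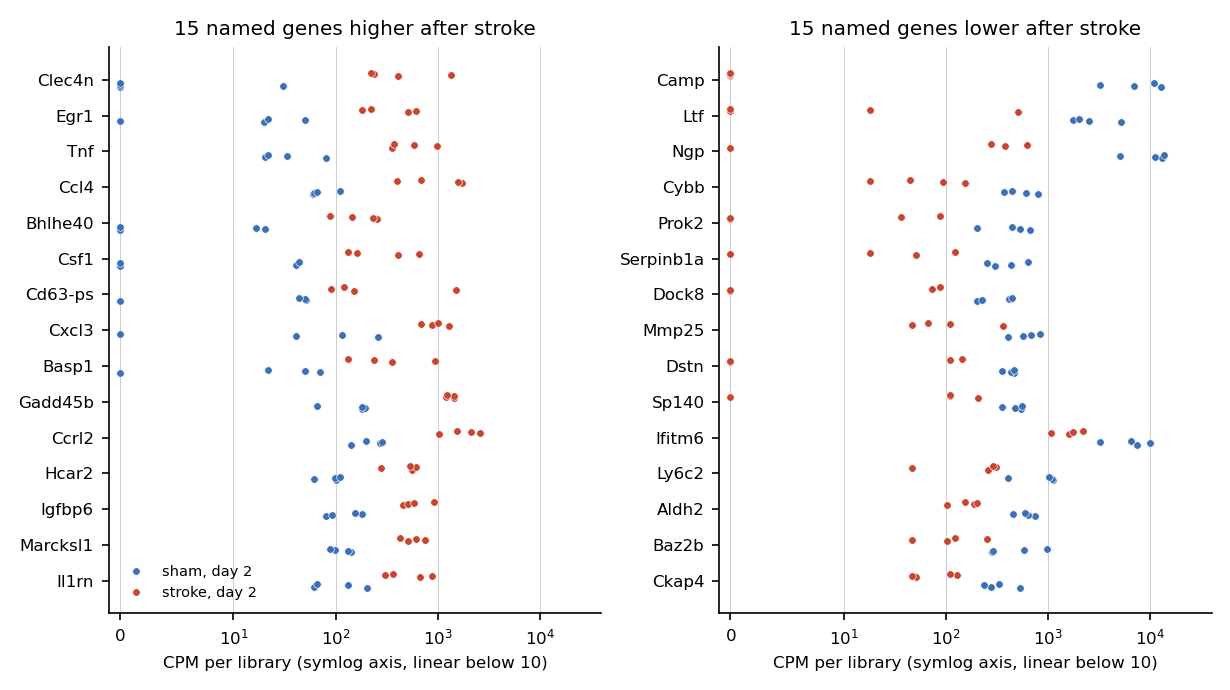
CPM in each granulocyte library of the 15 named genes higher after stroke (left) and the 15 lower (right), on a symlog axis that is linear below 10; each gene has 4 sham and 4 stroke points. No stroke point overlaps the sham points of the same gene, which the rule for naming required.

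A few chemokine genes rose in granulocytes after stroke. Of 14 chemokine genes listed, 5 were tested and 4 were called, all higher (5.53% of all tested genes were), with a median log2 fold change of 2.52 over the 5 against -0.01 over all genes tested. Ccl3, Ccl4 and Cxcl3 had 20, 18 and 24 counts in all sham libraries together, few enough that they may have passed the filter only through the groups where they are high. Cxcl2, a ligand that draws in further neutrophils through CXCR2, stood at 4686, 3638, 5167 and 2375 CPM in the sham libraries and 12041, 14752, 9868 and 14287 CPM in the stroke libraries. It rose by 1.68 ± 0.34 (SE) on the log2 scale (edgeR adjusted p = 0.0048). Cxcl3, a related CXCR2 ligand, stood at 261, 40.7, 116 and 0 CPM after sham and 1276, 887, 688 and 1000.1 CPM after stroke, a rise of 3.22 ± 0.61 (adjusted p = 0.0026; 4.06 without sham replicate 1). Sham replicate 4 lists Cxcl3 in no cell of any type. All stroke libraries lay above all sham libraries for both genes.

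The CC chemokines Ccl3 and Ccl4, which draw in monocytes and lymphocytes, rose as well. Without sham replicate 2 or stroke replicate 2, Ccl3 did not pass (highest edgeR adjusted p = 0.0692, with a log2 fold change of 1.89 without stroke replicate 2). Ccl4 stood at 60.3, 61.0, 66.5 and 109.9 CPM after sham and 1735, 1587, 398 and 692 CPM after stroke (3.82 ± 0.52, adjusted p = 0.000203). Ccl3 stood at 50.8 to 132 CPM after sham and 187 to 1120.4 CPM after stroke (2.52 ± 0.63, adjusted p = 0.016). In the pooled other cells of the stroke libraries Ccl4 was at 732 CPM and Ccl3 at 392 CPM. Both levels lie within the range of the granulocyte libraries of that group. In stroke granulocytes pooled, Ccl4 stood at 816 CPM, above the other cells, and Ccl3 stood below them. The part that RNA from other cells had in these values was not tested. Cxcl2 and Cxcl3 stood at 1894 and 60.4 CPM in the other cells of the stroke libraries, below every granulocyte library of that group. Ccl6, the remaining chemokine tested, did not pass (-0.21 ± 0.40, adjusted p = 0.814).

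Among 16 cytokine genes and antagonists, 6 were tested, 3 were called and all 3 were higher, against 5.53% of all tested genes (median log2 fold change 1.56). Tnf and Csf1 had 9 and 7 counts in all sham libraries together, so this share and median may rest on members that passed the filter only through the groups where they are high. Tnf, the gene of tumour necrosis factor, stood at 80.5, 20.3, 33.2 and 22.0 CPM after sham and 357, 980.3, 579 and 374 CPM after stroke, a rise of 3.85 ± 0.61 (edgeR adjusted p = 0.000715). All 4 stroke libraries lay above all 4 sham libraries. Csf1, the macrophage growth factor gene, stood at 0, 40.7, 0 and 44.0 CPM after sham and 408, 654, 163 and 132 CPM after stroke (3.54 ± 0.72, adjusted p = 0.0048; 4.23 without sham replicate 2). Il1rn, which encodes the interleukin-1 receptor antagonist, stood at 61.0 to 201 CPM after sham and 308 to 887 CPM after stroke (2.20 ± 0.46, adjusted p = 0.00547). Il1b itself was at 4264 to 12909 CPM after sham and 10364 to 20144 CPM after stroke and did not pass (0.92 ± 0.38, adjusted p = 0.166), and its libraries overlapped.

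Of 18 chemotactic and cytokine receptor genes, 15 were tested and 1 was called, higher, a share near the 5.53% of all tested genes. Ccrl2, an atypical receptor that binds chemerin without signalling through G proteins, stood at 141, 274, 282 and 198 CPM after sham and 1020.5, 2614, 2136 and 1539 CPM after stroke (2.99 ± 0.37, adjusted p = 8.67e-05). Cxcr2, the receptor of Cxcl2 and Cxcl3, stood at 2916 to 4332 CPM after sham and 2334 to 2959 CPM after stroke and did not pass (-0.52 ± 0.33, adjusted p = 0.381). Of 17 adhesion and migration genes, 11 were tested and 0 were called, with a median of -0.21.

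NF-kB is a transcription factor that many inflammatory signals activate and that induces its own inhibitors. Of 14 genes of a list of this feedback, 5 were tested and 2 passed, both higher, against 5.53% of all tested genes. Nfkbid and Tnfaip3 had 22 and 17 counts after sham, and 9 genes of the list were below the filter, among them Nfkb1 with 14 counts after sham and 4 after stroke. Nfkbia, which encodes the inhibitor IkB-alpha, stood at 2554, 1474, 2243 and 1583 CPM after sham and 8572, 8356, 6808 and 9879.8 CPM after stroke, a rise of 2.10 ± 0.32 (edgeR adjusted p = 0.000715). Nfkbid, a nuclear member of the same family, stood at 30.5 to 221 CPM after sham and 373 to 510.2 CPM after stroke (2.11 ± 0.49, adjusted p = 0.0108), and did not pass without sham replicate 2 or sham replicate 4 (highest adjusted p = 0.061); without sham replicate 1 its log2 fold change was 2.74. Tnfaip3 and Nfkbiz, the genes of A20 and of IkB-zeta, did not pass (adjusted p = 0.0997 and 0.924).

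To show the control regions of 3 of the genes that rose, the 250 bases before the transcript start of Nfkbia (chr12:55492648-55492897, minus strand), Cxcl2 (chr5:90903649-90903898, plus strand) and Tnf (chr17:35202008-35202257, minus strand) are given 5′ to 3′ from RefSeq on build GRCm38.p6. Capitals mark matches on either strand to GGG and CC with any 5 bases between, a loose form of the NF-kB motif.
Nfkbia: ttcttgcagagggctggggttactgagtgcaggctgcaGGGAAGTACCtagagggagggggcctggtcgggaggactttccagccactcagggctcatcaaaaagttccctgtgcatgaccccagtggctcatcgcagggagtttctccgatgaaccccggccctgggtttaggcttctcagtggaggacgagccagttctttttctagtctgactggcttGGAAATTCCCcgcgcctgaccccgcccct
Cxcl2: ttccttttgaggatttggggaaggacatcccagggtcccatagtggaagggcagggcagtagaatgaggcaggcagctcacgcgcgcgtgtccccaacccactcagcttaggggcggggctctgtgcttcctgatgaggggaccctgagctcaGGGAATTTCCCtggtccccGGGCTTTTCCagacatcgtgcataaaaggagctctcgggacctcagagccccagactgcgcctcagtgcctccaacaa
Tnf: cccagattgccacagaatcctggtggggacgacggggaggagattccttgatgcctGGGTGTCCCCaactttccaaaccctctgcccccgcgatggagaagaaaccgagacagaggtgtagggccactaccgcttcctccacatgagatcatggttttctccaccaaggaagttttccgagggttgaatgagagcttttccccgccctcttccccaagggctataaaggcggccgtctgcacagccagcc
Nfkbia holds 2 matches, Cxcl2 holds 3 of which 2 overlap, and Tnf holds 1. The same letters occur in 45.4% of the 27025 promoters of the table, in 62.0% of the 769 tested genes that the table holds and in 30 of 42 genes called higher (71.4%), so a match by itself is common. The matches describe the sequence and are not bound sites.

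Immediate early genes, which cells induce within minutes of many stimuli, rose in part. All 17 listed genes were tested; 6 were called and all 6 were higher, against 5.53% of all tested genes, and the median of the list was 0.76. Egr1, a zinc finger transcription factor, stood at 20.1, 0, 49.8 and 22.0 CPM after sham and 510.2, 607, 181 and 219.8 CPM after stroke (3.91 ± 0.68, adjusted p = 0.00123; 3.30 without sham replicate 2 and 4.67 without sham replicate 3). Dusp2, a phosphatase of MAP kinases, Ier3, Nr4a1, Btg2 and Zfp36 rose by 3.03, 2.25, 1.75, 1.38 and 1.27 on the log2 scale. On leaving out 1 library at a time, Nr4a1 lost its call in 4 of 8 fits, Zfp36 in 6 and Btg2 in 1, that without sham replicate 4 (highest edgeR adjusted p = 0.0937, 0.147 and 0.0601). Dusp2 and Ier3 stood higher in the other cells of the stroke libraries than in granulocytes pooled. In the other cells of the sham libraries Egr1 was at 564 CPM, above the sham granulocytes, and at 88.8 CPM after stroke, below the stroke granulocytes. Gadd45b, a stress gene outside the list, had the smallest adjusted p of the comparison (6.1e-05). It stood at 181, 193, 183 and 66.0 CPM after sham and 1429, 1214, 1430.4 and 1219.9 CPM after stroke, a rise of 3.03 ± 0.35.

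Sensors of microbial and tissue damage signals rose in 3 of 12 genes tested, against 5.53% of all tested genes. Cd14, the co-receptor for lipopolysaccharide, stood at 864 to 1890.2 CPM after sham and 2334 to 5418 CPM after stroke (1.45 ± 0.40, adjusted p = 0.0293). Tlr2 and Nlrp3, a Toll-like receptor and the sensor of an inflammasome, rose by 1.58 ± 0.45 and 1.67 ± 0.45 (adjusted p = 0.031 and 0.0257). These 3 calls were near the threshold: leaving out 1 library at a time ended that of Cd14 in 7 of 8 fits and those of Tlr2 and Nlrp3 in 6 each (highest edgeR adjusted p = 0.158, 0.161 and 0.097). Clec4n, which encodes the C-type lectin dectin-2, had the highest fitted fold change of the named genes, on few counts. It was listed at 0, 30.5, 0 and 0 CPM after sham and stood at 408, 1354, 235 and 219.8 CPM after stroke (5.20 ± 0.86, adjusted p = 0.000778; 7.59 without sham replicate 2 and 4.30 without stroke replicate 2). On 3 counts against 70, the pooled ratio was 36.0 with an exact 95% interval of 11.8 to 179 for counting error alone.

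The remaining named genes that rose have other roles. Hcar2, a receptor for hydroxybutyrate and nicotinic acid, stood at 61.0 to 109.9 CPM after sham and 280.1 to 616 CPM after stroke (2.48 ± 0.41, adjusted p = 0.000778). It stood at 14.1 CPM in the other cells of the stroke libraries. Igfbp6, an insulin-like growth factor binding protein, stood at 80.5 to 183 and 459 to 923 CPM (2.34 ± 0.43, adjusted p = 0.00258). Marcksl1 and Basp1, which encode membrane-associated proteins of the cell cortex, rose by 2.26 ± 0.36 and 3.08 ± 0.66, the latter by 3.70 without sham replicate 2 and 2.32 without stroke replicate 2. Bhlhe40, a transcription factor, rose by 3.55 ± 0.74 on 3 counts after sham and 26 after stroke (ratio 13.4, exact 95% interval 4.10 to 69.1), and by 4.18 without sham replicate 2. In the other cells of the stroke libraries Basp1 was at 216 CPM and Bhlhe40 at 96.3 CPM. Both levels lie above the lowest stroke granulocyte library of the gene (132 and 87.9 CPM). The part that RNA from other cells had in these values was not tested. Cd63-ps is a pseudogene whose reads cannot be told apart with certainty from those of Cd63, a granule membrane protein gene that itself rose by 2.74 (named here only for its pseudogene), and stroke replicate 2 alone, at 1494 CPM against 90.5 to 153 CPM in the others, held the highest level. Without stroke replicate 2 the log2 fold change of Cd63-ps was 1.54 (edgeR adjusted p = 0.264) and that of Cd63 2.09. Without any 1 of the sham libraries Cd63-ps did not pass either. In the other cells of the stroke libraries Cd63-ps was at 238 CPM, above every stroke granulocyte library other than replicate 2.

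Of 22 interferon response genes, 9 were tested and 1 passed: Rsad2, an antiviral enzyme, was higher after stroke (2.14 ± 0.58, adjusted p = 0.0257), and the list's median was 0.31. Of 24 glycolysis and hypoxia genes, 11 were tested and 1 passed: Hilpda, a lipid droplet protein induced by hypoxia, rose by 2.07 ± 0.54 (adjusted p = 0.0213), with a list median of 0.20. Bcl2a1b, an anti-apoptotic gene with near-identical copies that share reads, was the 1 of 4 survival genes that passed (2.88 ± 0.65, adjusted p = 0.00881), and its libraries overlapped. Fth1, ferritin heavy chain, rose by 1.21 ± 0.33 (adjusted p = 0.0287) in a list of iron genes with 5 tested, of which 1 other, Lcn2, was called lower and the median was -0.45. The 3 eicosanoid genes and the 4 glucocorticoid response genes tested gave 0 calls. No gene of the azurophil granule list (7 genes) or of the MHC class II list (11 genes) had enough counts to be tested. Shares of 1 in 9 and 1 in 11 are near the 5.53% called higher over all tested genes, and those of 1 in 4 and 1 in 5 rest on 1 gene each. Leaving out 1 library at a time ended the calls of Fth1, Rsad2 and Hilpda in 7, 5 and 4 of 8 fits (highest edgeR adjusted p = 0.178, 0.132 and 0.0962). The log2 fold change of Hilpda was 2.86 without sham replicate 2 and that of Bcl2a1b 3.53 without sham replicate 1.

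**Figure D3:**
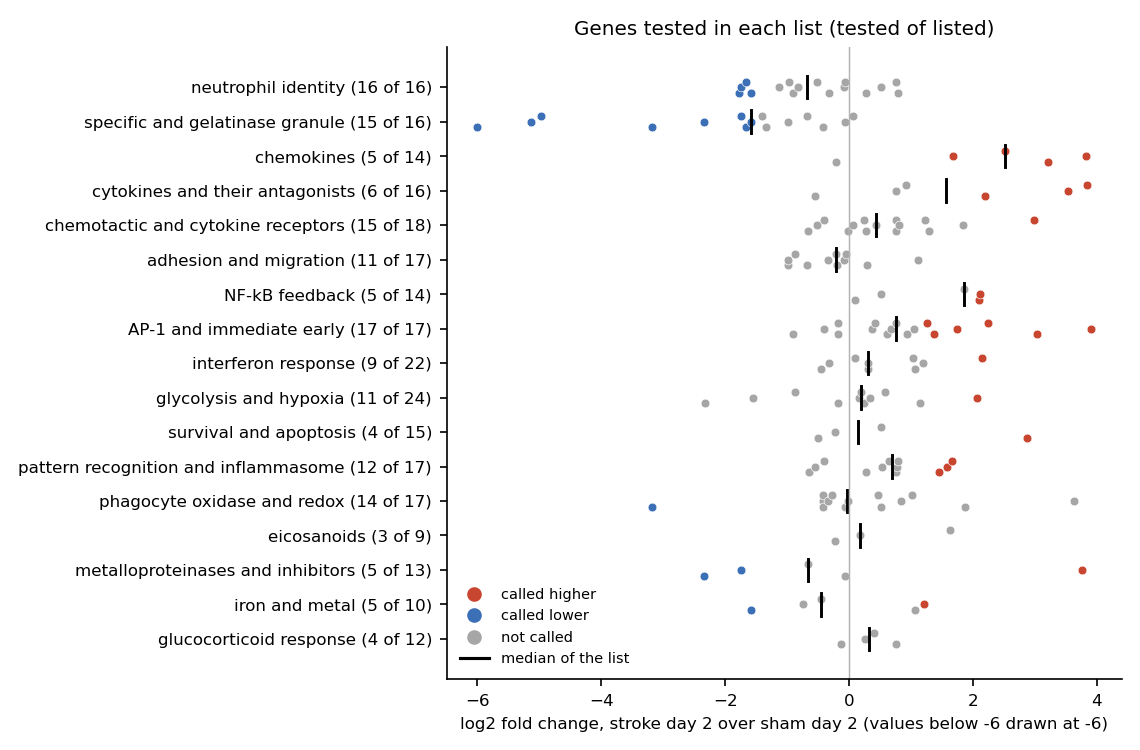
Log2 fold change of each tested gene, stroke day 2 over sham day 2, for the lists with at least 3 genes tested; colour gives the call and the black line the median of the list. Camp, listed at 0 in all stroke granulocyte libraries, is drawn at the left edge; the specific and gelatinase granule list has its median at -1.58 and the chemokine list at 2.52.

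Several genes of neutrophil granules fell after stroke. Of 16 specific and gelatinase granule genes, 15 were tested and 8 were called, all lower (2.82% of all tested genes were). Of the 15 fold changes 14 were below 0, and the median was -1.58. Camp, Cybb, Ltf and Mmp25 had 0, 10, 11 and 20 counts in all stroke libraries together. So this share and median may rest on members that passed the filter only through the groups where they are high. Ltf, the gene of the iron-binding granule protein lactoferrin, stood at 5189, 2489.8, 1744 and 1979 CPM after sham and 510.2, 0, 18.1 and 0 CPM after stroke (-5.14 ± 1.13, edgeR adjusted p = 0.00719; -8.42 without stroke replicate 1 and -4.36 without stroke replicate 4). Ngp, neutrophilic granule protein, stood at 12973, 11087, 4984 and 13656 CPM after sham and 0, 373, 616 and 275 CPM after stroke (-4.97 ± 1.04, adjusted p = 0.00526; -5.56 without stroke replicate 3). Camp, the cathelicidin antimicrobial peptide gene, stood at 12611, 6819, 3173 and 10753 CPM after sham and was listed at 0 in all 4 stroke granulocyte libraries. Camp passed the test (adjusted p = 0.000715), and no fold is given against a group listed at 0.

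Zeros of whole genes need care in these tables. In each of the 8 libraries 3635 to 6677 of 19704 genes had no value in any cell, while 558 to 639 genes had a value in 5 cells and only 0 to 66 in 1 cell. So genes in 1 cell were rarer than genes in 5, and a gene at 0 in a whole library may have been left out of it. Camp had no value in any cell of stroke replicates 1, 2 and 3, Prok2 in 2 stroke libraries, and Ltf and Ngp in 1 each. Gran5 and Gran6, which together held 25 stroke granulocytes, also had Camp among their leading genes over the 8 libraries, although no stroke granulocyte held a Camp value. Camp, Prok2, Ltf, Ngp and Cxcl3 were the only called genes with no value in at least 1 library. With the test limited to genes that have a value in all 8 libraries, an alternative chosen after seeing the data, 78 of the 83 calls were made again. This limit leaves out the genes just named, so it cannot tell whether their zeros are real.

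Other granule genes held values in every library. Cybb, the heme-binding subunit of the phagocyte oxidase, stood at 784, 599.6, 366 and 439.8 CPM after sham and 153, 93.4, 18.1 and 44.0 CPM after stroke (-3.19 ± 0.83, adjusted p = 0.0213); it was the 1 called gene of 14 oxidase and redox genes tested, a share near the 8.35% of all tested genes (list median -0.04), and stood at 236 CPM in the other cells of the stroke libraries. Lcn2, an iron-siderophore binding protein, stood at 4968 to 10671 CPM after sham and 1587 to 3983 CPM after stroke (-1.58 ± 0.45, adjusted p = 0.0317). Mmp8, neutrophil collagenase, stood at 3258 to 6157 and 561 to 2044 CPM (-1.74 ± 0.44, adjusted p = 0.0185), while Mmp9, the gelatinase, stood at 704 to 2434 and 1121 to 1448 CPM and did not pass (-0.06 ± 0.39, adjusted p = 0.953). Mmp25, a membrane-anchored metalloproteinase, stood at 402 to 836 and 46.7 to 357 CPM (-2.33 ± 0.57, adjusted p = 0.014; -2.96 without stroke replicate 1). Wfdc21, a small secreted protein with a WAP domain, fell by 1.66 ± 0.49 on the log2 scale (adjusted p = 0.0401). Of the 16 identity genes of neutrophils, all tested, 12 had a fold change below 0 (median -0.67) and 4 passed, all lower, against 2.82% of all tested genes: Ly6g, the surface antigen by which mouse neutrophils are sorted, at 714 to 1219.5 and 46.7 to 471 CPM (-1.77 ± 0.45, adjusted p = 0.0213), beside Mmp8, Lcn2 and Wfdc21. Leaving out 1 library at a time ended the calls of Wfdc21 in 7, Lcn2 in 6, Mmp8 in 4 and Ly6g and Cybb in 3 of 8 fits, with highest edgeR adjusted p = 0.121, 0.128, 0.0695, 0.0908 and 0.0688, and that of Mmp25 without stroke replicate 4 (0.058). The direction held in each of these fits.

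The same stretch of 2 granule genes that fell, Ltf (chr9:111019042-111019291, plus strand) and Ngp (chr9:110419558-110419807, plus strand), is given for comparison, again from RefSeq on GRCm38.p6. Here capitals mark matches on either strand to TTGCNNAA, a loose form of the motif of C/EBP factors, which act in granulocyte maturation.
Ltf: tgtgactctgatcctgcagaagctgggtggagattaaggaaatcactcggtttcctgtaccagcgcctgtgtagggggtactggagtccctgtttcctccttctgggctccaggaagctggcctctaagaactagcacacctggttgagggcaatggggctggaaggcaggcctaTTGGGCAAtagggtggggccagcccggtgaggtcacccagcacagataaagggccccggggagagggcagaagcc
Ngp: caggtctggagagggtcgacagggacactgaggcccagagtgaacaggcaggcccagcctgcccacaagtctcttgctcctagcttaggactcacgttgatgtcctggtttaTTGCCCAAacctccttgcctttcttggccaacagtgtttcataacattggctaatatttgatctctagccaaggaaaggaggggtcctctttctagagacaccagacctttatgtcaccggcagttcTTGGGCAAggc
Ltf holds 1 match and Ngp holds 2. The letters occur in 9.55% of all promoters of the table, in 10.8% of those of tested genes, in 6 of 21 genes called lower that the table holds (28.6%) and in 1 of 42 called higher (2.38%). The 2 motifs overlap in 0.0925% of promoters. No test was made of these shares.

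The other named genes that fell range over secreted, cytoskeletal and nuclear proteins. Prok2, a secreted chemokine-like peptide, stood at 664, 528, 199 and 439.8 CPM after sham and 0, 0, 36.2 and 87.9 CPM after stroke (-3.18 ± 0.61, adjusted p = 0.00464; -4.36 without stroke replicate 4). Serpinb1a, an inhibitor of neutrophil serine proteases, stood at 249 to 638 and 0 to 121 CPM (-2.64 ± 0.58, adjusted p = 0.00719; -4.11 without stroke replicate 4). Ifitm6, of a family of interferon-induced membrane proteins, stood at 3189.8 to 9888 and 1074 to 2187 CPM (-2.01 ± 0.39, adjusted p = 0.00359). Ly6c2, a surface antigen shared with monocytes, fell by 1.89 ± 0.49 while it stood at 608 CPM in the other cells of the stroke libraries, above every stroke granulocyte library. Dock8, Dstn, Sp140, Aldh2, Baz2b and Ckap4 fell by 2.39, 2.21, 2.14, 1.86, 1.83 and 1.78 on the log2 scale, and the log2 fold change of Dstn was -2.85 without stroke replicate 4. Leaving out 1 library at a time ended the calls of Ckap4 in 6, Baz2b in 5 and Ly6c2 in 3 of 8 fits (highest edgeR adjusted p = 0.0975, 0.134 and 0.0712). That of Dock8 ended without sham replicate 4 (edgeR adjusted p = 0.061). Prok2 was below the count filter without sham replicate 1 or 2, and Dock8 without sham replicate 3.

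Levels of several called genes differed between subtypes. Over the 8 libraries pooled, Gran4 held Camp at 24372 CPM, Ltf at 8929 CPM and Ngp at 30961 CPM, against 53.3, 36.6 and 959 CPM in Gran1. Gran5, whose share did not pass the test, held them at 22866, 10105 and 31653 CPM, and Gran6 held Camp at 14822 CPM. No stroke granulocyte held a Camp value, so the Camp levels of all subtypes come from sham cells alone. Gran5 held 10 sham and 10 stroke cells, and Gran6 held 6 and 15. Cxcl2 stood at 4285 CPM in Gran1, 20801 in Gran2 and 26057 in Gran3, and Nfkbia at 2004, 15200 and 11647 CPM. Tnf stood at 17.6 CPM in Gran1, 904 in Gran2 and 1715 in Gran3. In stroke granulocytes 75.1% of Tnf counts and 72.7% of Nfkbia counts came from Gran2 cells. These levels describe clusters made on the same genes and carry no test.

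Gran1 was the subtype with the most cells in both groups pooled. Within it, Cxcl2 stood at 4157 CPM in sham and 4581 CPM in stroke Gran1 cells, Tnf at 15.7 and 22.1 CPM, Gadd45b at 150.3 and 153 CPM, and Mmp8 at 4357 and 3149.7 CPM. Of 267 genes tested within Gran1, edgeR called 0, with 20 at an unadjusted p under 0.05. All 20 of the 83 called genes that could be tested there had the same sign as in all granulocytes, for example Cxcl2 at 0.07, Nfkbia at 0.53, Lcn2 at -0.41 and Ifitm6 at -0.61 on the log2 scale. Gran1 cells are part of the same libraries, so this is no separate evidence. The test within Gran1 rests on 124 stroke cells, 13 and 15 in stroke replicates 1 and 2.

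Leaving out the 63 Gran4 cells, a choice made after seeing the data, left 55 calls of 768 genes tested. Of 28 genes called lower, 17 could still be tested and 10 were called; Camp, Ltf, Cybb, Prok2 and Serpinb1a fell below the count filter. Ngp (-4.19, adjusted p = 0.00186), Mmp8, Mmp25 and Ifitm6 still passed, and Lcn2 (-1.18, adjusted p = 0.0721), Ly6g (-1.44, 0.0754) and Ly6c2 (-1.25, 0.151) did not. Of 55 genes called higher, 53 were tested and 43 were called.

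**Figure D4:**
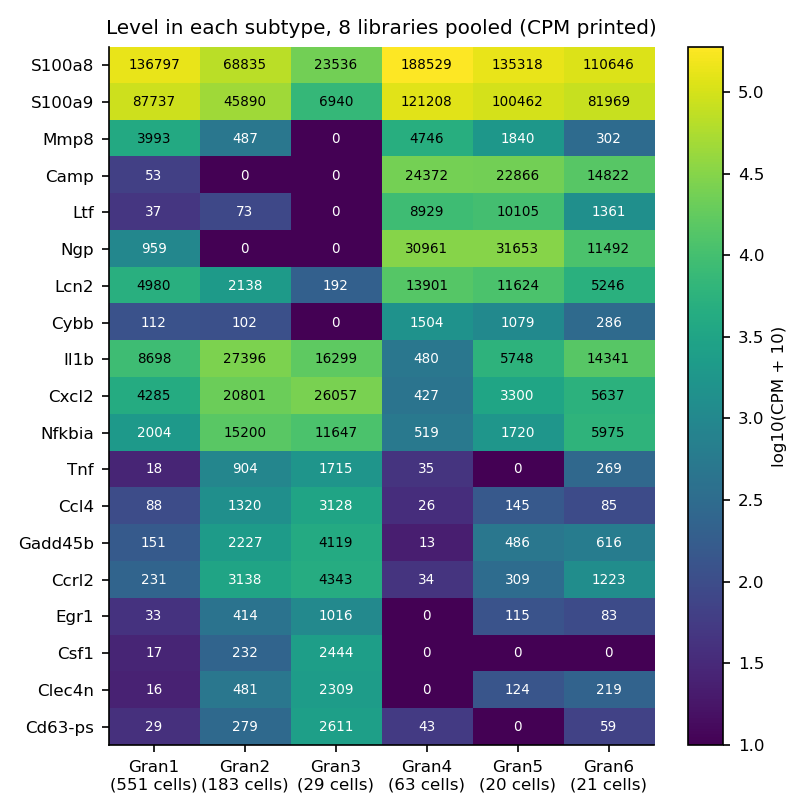
Level of selected genes in each granulocyte subtype, pooled over the 8 libraries, as log10(CPM + 10) in colour with the CPM printed in each cell. Granule genes such as Camp (24372 CPM in Gran4) and chemokine and cytokine genes such as Tnf (904 CPM in Gran2 and higher in Gran3) mark different subtypes.

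Granulocytes of aged mice, which were not used above, gave a second set of libraries. They came from C57BL/6J mice of 17 to 20 months at day 2: 2 sham libraries, 1 male and 1 female, and 3 stroke libraries, 1 male and 2 female, with 280 cells in all. For 14 of the 15 named genes higher after stroke in young mice, all 3 aged stroke libraries lay above both sham libraries, where 26.9% of all tested genes did so. For 10 of the 15 named lower genes all 3 lay below, where 9.46% of tested genes did so. None of the 30 was apart in the opposite direction. Tnf stood at 151 and 0 CPM in the aged sham libraries and 390.4, 683 and 281 CPM in the aged stroke libraries, and Ccrl2 at 213 and 73.6 against 2636, 5431 and 3646 CPM. Ltf stood at 1857 and 2400.4 CPM after sham and 413, 118 and 0 CPM after stroke. Camp stood at 19144 and 9439 CPM in the aged sham libraries and 3387, 67.7 and 0 CPM in the aged stroke libraries. Mmp8, lower in young mice, overlapped in aged mice, at 1552 and 2691 CPM after sham and 1252 to 2839 CPM after stroke. These CPM are scaled to each library's own granulocyte total, with 2 against 3 libraries and no test.

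Blood neutrophils of young mice were compared in the same way. There, 14264 cells of the class Neu were available from 4 sham and 4 stroke libraries at day 2, of male C57BL/6J mice of 8 to 10 weeks. Of the 14 named higher genes in the blood table, 0 were above sham in every stroke library, where 1.41% of tested genes were, with 1 of the 14 below in every stroke library, and of the 15 named lower genes 0 were below, where 0.302% were. Tnf was at 0 to 4.40 CPM in blood sham and 0 to 9.54 CPM in blood stroke libraries, and Ccrl2 at 0 to 6.27 and 5.12 to 62.6 CPM. Ngp ran from 143 to 1523 CPM in sham and from 166 to 6914 CPM in stroke blood, blood stroke replicate 4 holding the highest level of Ngp, Camp (5115 CPM) and Ltf (1616 CPM). The difference between brain and blood in the response was not tested.

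At day 14 after stroke, 363 granulocytes in 4 young libraries gave the following levels; they share the sham libraries, so they are given as levels only. Their subtype mix, given as a description, had mean shares of 5.04% Gran1, 60.3% Gran2 and 26.7% Gran3. Ccl4 stood at 3059.6 to 6497 CPM, Ccrl2 at 4548 to 6015 CPM and Gadd45b at 3238 to 4142 CPM, each above every day 2 stroke library. Cxcl2 stood at 9641 to 21708 CPM and Tnf at 184 to 1003 CPM, overlapping day 2. S100a8 stood at 20384 to 32981 CPM, below every day 2 library, and Igfbp6 at 45.9 to 244 CPM. Day 14 replicate 3 held Ltf, Camp and Ngp at 832, 1451 and 1886 CPM. The other day 14 libraries listed Camp and Ngp at 0 and held Ltf at 0 to 43.6 CPM. These levels rest on few cells: over all day 14 granulocytes, Camp and Ngp had a value in 2 cells each and Ltf in 4.

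**Figure D5:**
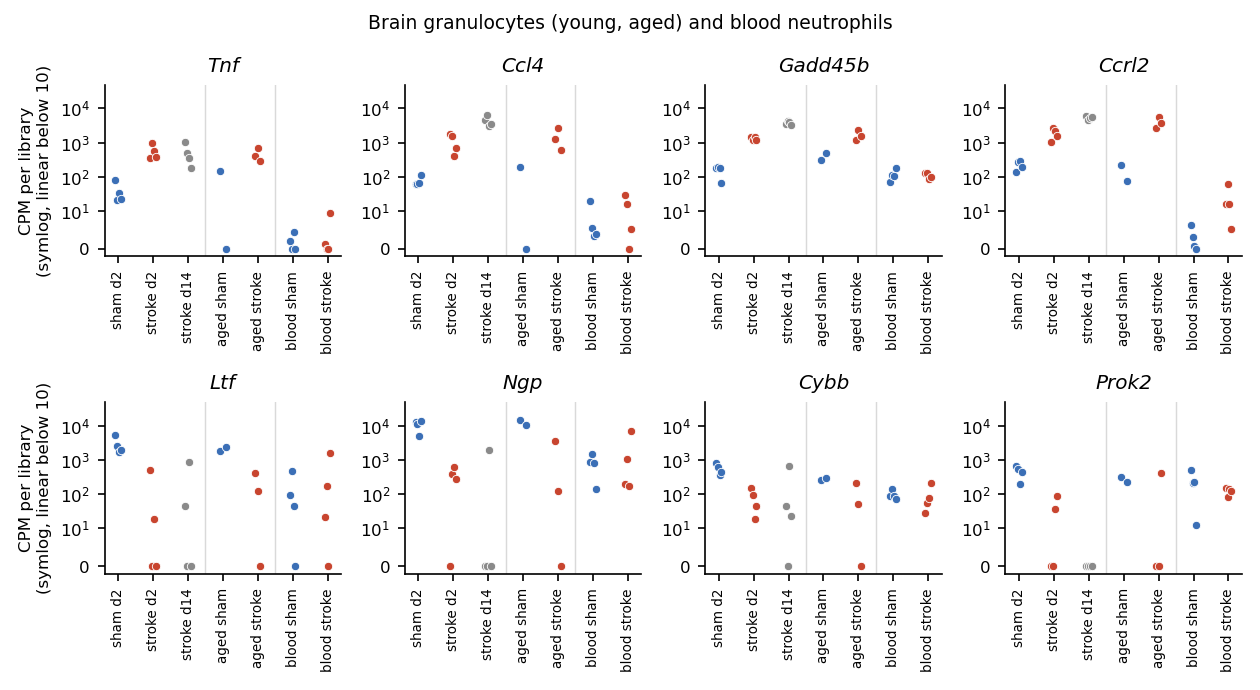
CPM of 8 named genes in each library of young brain granulocytes (sham day 2, stroke day 2, stroke day 14), aged brain granulocytes (day 2) and blood neutrophils (day 2), on a symlog axis that is linear below 10. Points are libraries; Ccrl2 lies at 2636 to 5431 CPM in aged stroke granulocytes and at most at 62.6 CPM in blood.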

How the data were processed

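Single cells of sorted mouse brain and of blood were profiled by Drop-seq, per the labels. The authors deposited 1 table of estimated counts per gene and cell for each library, with tables giving each cell's class, total count, number of genes (a count) and percent of mitochondrial counts. Build mm10 and Seurat are named per the submitters' processing notes; the aligner, the counter, the cell filters and the step that made counts fractional are not given in the sources used here. Estimated counts were summed per library over cells of the class Gran, rounded, and tested with edgeR 4.0.16 in R 4.3.3 (quasi-likelihood test, TMM scaling, filterByExpr, Benjamini-Hochberg adjustment, threshold 0.05), with the young day 14 libraries sharing the estimate of spread. CPM of young brain libraries use the TMM-scaled total, and other CPM the plain total. Shares were tested on cell counts with edgeR and with exact permutation tests, both in R. DESeq2 1.42.0 was an alternative. Intervals cover counting error only.

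By rule, 15 called genes were named in each direction, taken by size of log2 fold change among those that met the following limits. They had a mean of at least 20 CPM and libraries apart between groups. Their granulocyte level in the higher group was at least that of the other cells. No other common brain type stood above 10 times the granulocyte level. Predicted, mitochondrial, ribosomal, haemoglobin, immunoglobulin and T cell receptor genes, Xist and Y-linked genes were not named. Up to 6 genes of each list were given with values as well. Members, lists and tests were chosen with earlier results of these data known. The test was checked on simulated counts. Scrublet marked 0.0565 to 0.375% of cells in these libraries, too few to serve as a check for doublets. Promoters came from RefSeq (GRCm38.p6) and matched 769 of the 994 tested genes by symbol.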

Additional observations from a re-analysis of the deposited data

Results flagged for a closer look

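In groups of 4 libraries, a value was singled out where its gap to the nearest other library was over the 95% critical value of Dixon's test. Of 80 groups checked 10 were singled out, where independent groups of normally distributed values would give about 1 in 20. The groups here share libraries and some hold values of 0, so an excess over chance is not shown. Stroke replicate 2 was highest for Cd63-ps (1494 CPM, others 90.5 to 153) and Clec4n (1354 CPM, others 219.8 to 408) and held the highest share of Gran3 (24.0%, others 2.70 to 5.66%), of which both genes are among the leading genes. Stroke replicate 1 held the highest Gran2 share (58.5%, others 45.9 to 46.7%) and the highest Ltf level of its group (510.2 CPM, others 0 to 18.1). Sham replicate 4 stood apart for Ccl4 (109.9 CPM, others 60.3 to 66.5) and Gadd45b (66.0 CPM, others 181 to 193). Sham replicate 3 was lowest for Ly6c2 (399 CPM, others 1012 to 1106), sham replicate 1 lowest for Cd63-ps (0 CPM, others 44.0 to 50.8), and sham replicate 2 highest for Clec4n (30.5 CPM, others 0).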

How the results depend on the processing

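The main fit called 83 genes in granulocytes. With no filter on low counts 45 were called (12031 genes tested), and 32 of them were shared with the main fit. In cells of at least 500 counts 41 were called (447 tested), 34 of them shared. Within Gran1 0 were called (267 tested). Without Gran4 cells, a setting chosen after seeing the data, 55 were called, 53 of them shared. These fits test other genes or fewer cells. Leaving out 1 library at a time gave 42 to 77 calls. DESeq2 gave 94, of which 81 were shared, and counting without TMM gave 87, of which 74 were shared. Of 30 named genes, 22 kept their call in every fit that left out 1 library. Cd63-ps, Cybb, Mmp25, Ly6c2, Dock8, Baz2b and Ckap4 lost it in at least 1. Prok2 could not be tested in 2 fits, and Dock8 could not be tested without sham replicate 3. With no filter on low counts 24 of the 30 named genes kept their call and 6 lost it. In cells of at least 500 counts 16 kept it, 2 lost it and the rest could not be tested. Only 2 could be tested within Gran1, and both lost it. Same-numbered sham and stroke libraries did not deviate together (correlations -0.0239, -0.0980, 0.00916 and 0.0920), and a replicate block gave 93 calls, 81 of them shared. For the Gran5 share, cells of at least 500 counts turned the log2 fold change to -1.69 (edgeR adjusted p = 0.114); the cause was not tested. For Gran6 it was 1.71 with the replicate block (adjusted p = 0.0639), 1.504 in cells of at least 500 counts (0.0862), and 1.43 to 2.04 leaving out 1 library at a time (0.0136 to 0.0946). The other shares kept direction and side of the threshold, but not size. In cells of at least 500 counts the share of all cells went from -0.59 to -1.47 and of leukocytes from -2.61 to -3.53. Gran1 went from -1.29 to -0.42, Gran4 from -3.55 to -5.99 and the fitted Gran3 value from 6.23 to 3.21 (edgeR adjusted p = 0.0165). That setting left only 2 to 93 granulocytes in a stroke library. Depth limits the fit to genes with enough counts in at most 169 cells a library.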
